A study of Homo sapiens with 2 samples.

Results

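The SLC25 carriers, the proteins that move metabolites across the inner mitochondrial membrane, were described in PLC/PRF/5 cells, a human line established from a hepatocellular carcinoma. They were taken as every gene whose symbol is SLC25A followed by a number, which gave 48 of 24991 single-gene symbols. A symbol listed in several rows was represented by the row with the highest mean. RNA was sequenced from 1 culture overexpressing NFX1, a zinc-finger transcription factor, and from 1 culture carrying an empty vector (EV). Both were grown in DMEM with serum and kept under hypoxia, so no normoxic group enters any comparison. Each group was 1 library, so no value has a replicate check, nothing was tested, and every difference compares 2 libraries and not the conditions.

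A carrier of this family is built of similar repeats, each with a pair of membrane-spanning helices, and usually exchanges a substrate on one side of the inner membrane for another on the opposite side. Through them ADP, phosphate, pyruvate-derived citrate, malate, amino acids, glutathione, nucleotides and cofactors pass between cytosol and matrix. In hepatocytes they tie the urea cycle, gluconeogenesis, fatty acid synthesis and oxidative phosphorylation to the cytosol. Many substrates are served by several paralogs that differ in tissue use or in regulation by calcium.

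Levels are FPKM, fragments scaled to the length of the transcript and to the library's total, a unit per length that allows levels of different genes to be set side by side. A change is log2((NFX1 FPKM + 1)/(vector FPKM + 1)), which understates the change of low genes, and a fold is the plain ratio of FPKM. The targeted gene NFX1 was at 56.0 FPKM in the NFX1 library and 4.21 FPKM in the vector library. Of 8 hepatocyte markers all reached 1 FPKM in at least 1 library, SERPINA1 with 6807 and 5935 FPKM and albumin (ALB) with only 1.06 and 0.776 FPKM in the NFX1 and vector libraries. The marker with the largest change, -0.44, was AHSG (fetuin), with 9.70 FPKM in the NFX1 library and 13.5 FPKM in the vector library. The 7 leukocyte, endothelial and fibroblast markers stayed under 1 FPKM. Library totals were estimated as 42200000 fragments in the NFX1 library and 36700000 fragments in the vector library. They were chosen to bring low values of short olfactory receptor rows near whole numbers of fragments. With them, the 10 such rows in the NFX1 library and 9 in the vector library lay within 2% of whole numbers. Since the totals were fitted to these same rows, that closeness is no check on them. These totals are those behind the deposited values and may include a scaling between the libraries by the authors, in which case fragment numbers and intervals shift with it. The 95% exact (Clopper-Pearson) intervals given with a fold come from fragments estimated with these totals and cover counting error alone.

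Of the 48 carriers, 36 reached 1 FPKM in one library or both, out of 11182 such genes in all, and these are called measured. Their levels spanned more than 2 orders of magnitude and kept nearly the same order in both libraries. SLC25A3, which imports phosphate for ATP synthesis and also carries copper, had 418 FPKM in the NFX1 library and 349 FPKM in the vector library. SLC25A5, an ADP/ATP exchanger, had 404 FPKM in the NFX1 library and 370 FPKM in the vector library. These are the carriers that feed the ATP synthase, and together they made up 49.0% of the summed FPKM of the family in the NFX1 library and 49.6% in the vector library. The order of these 2 carriers was the reverse in the vector library. With the citrate carrier SLC25A1 and the glutathione carrier SLC25A39 the share was 68.4% in the NFX1 library and 66.8% in the vector library. The median measured carrier was far lower, at 10.2 FPKM in the NFX1 library and 10.4 FPKM in the vector library. The summed FPKM of the family takes SLC25A6, another ADP/ATP carrier, at its listed 0 in both libraries, which is not read as absence. SLC25A38 was also listed at 0 in both, and whether that is a failed estimate was not tested. The shares of the family sum therefore hold only among the carriers with values above 0.

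**Figure D1:**
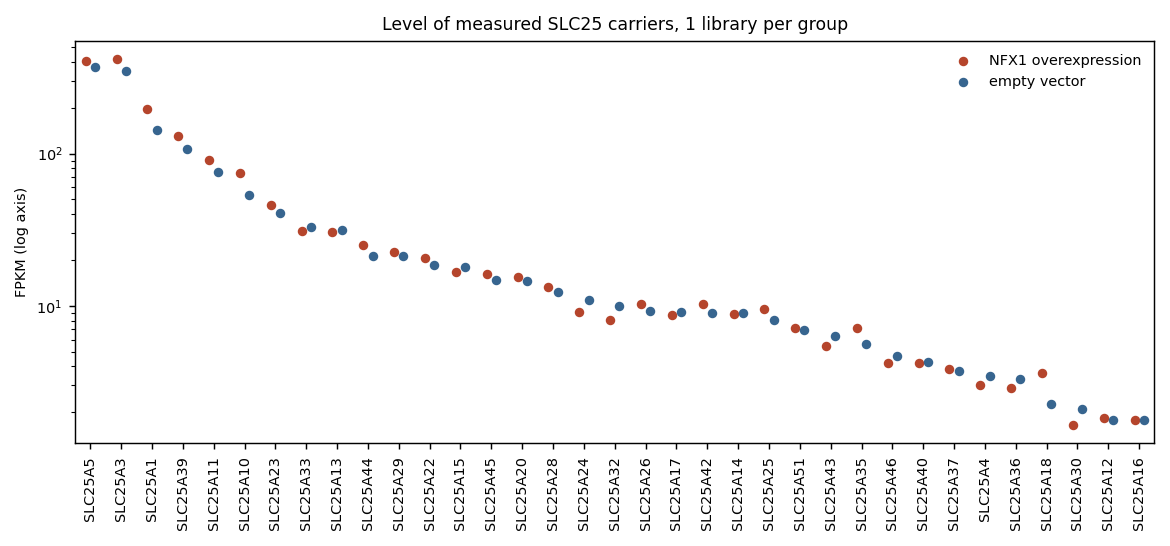
FPKM (log axis) of the measured carriers reported here in the NFX1 library (red) and the vector library (blue), 1 point per library, ordered by the vector library. SLC25A5 and SLC25A3 stand highest, at 349 FPKM or more in both libraries, while 9 carriers at the right-hand end lie under 5 FPKM in both.

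Differences were small. A change of at least 0.32, the limit used here for calling a gene higher, was found for 3 of the 36, SLC25A18, SLC25A10 and SLC25A1, against 6.12% of the 11182 measured genes. A change as far below 0 was found for 0 of the 36, against 2.3% of all. On the same FPKM + 1 scale no carrier was 1.5-fold higher or lower (0.42% and 0.215% of all genes) and none 2-fold (0.107% and 0.0358%), though the plain ratio of SLC25A18 was 1.58. The change was above 0 for 23 carriers and below 0 for 13, with a median of 0.08, beside 0.01 over all measured genes. The same median was 0.04 over 141 other solute carriers, 0.10 over 74 mitochondrial ribosomal proteins and 0.13 over 75 nuclear subunits of oxidative phosphorylation. The counting interval of the fold lay above 1 for 15 of the 36 carriers, against 32.4% of all genes, and below 1 for 6, against 22.8%.

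The changes went with base composition. Across all genes, the fifth with the lowest transcript GC content (median 39.8%) had a median change of -0.11 and the fifth with the highest (median 62.5%) one of 0.20. Among the carriers, whose transcripts range from 34.2% GC for SLC25A40 to 65.4% for SLC25A10, 17 of the 18 richest in GC had a change above 0 and 6 of the 18 poorest. The rank correlation of change with GC content was 0.78 over the 36 carriers and 0.63 over all genes, a description across genes that share their libraries. Changes below are therefore mostly given also after subtraction of the trend with GC content, transcript length and expression, which left a median of 0.04 over the 36 carriers. Beside it stood 0.05 over mitochondrial ribosomal proteins, 0.04 over nuclear oxidative phosphorylation subunits, -0.007 over other solute carriers and 0.003 over all genes. After that subtraction SLC25A18 was the 1 carrier past the limit of 0.32 above 0 and none was past it below 0, against 1.94% and 2.04% of the 10984 genes with a transcript sequence. The rank correlation of the subtracted changes with GC content was still 0.23 over the 36 carriers, so these values are not wholly free of it.

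**Figure D2:**
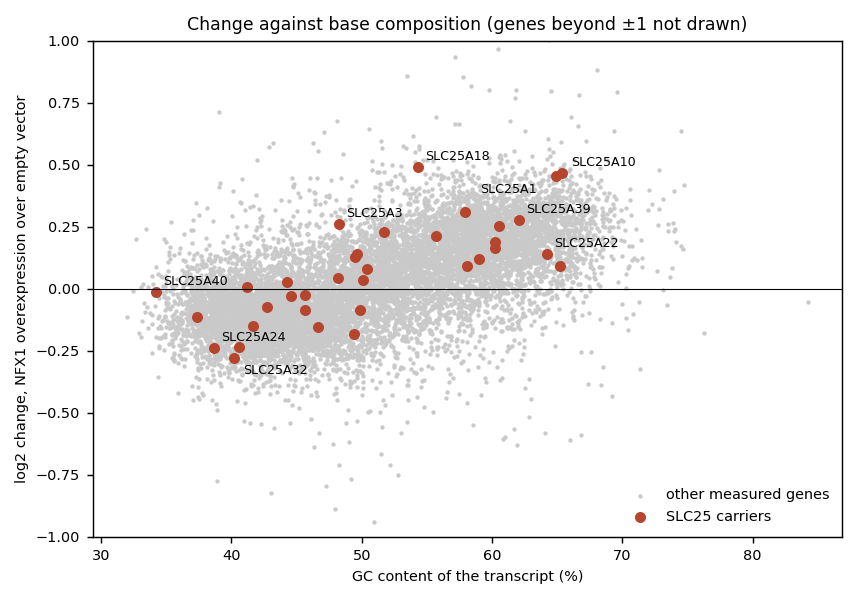
Log2 change (vertical axis, NFX1 overexpression over empty vector) against GC content of the transcript in percent (horizontal axis) for the measured SLC25 carriers reported here (red) and the other measured genes (grey, those beyond 1 in either direction not drawn). Carriers poor in GC lie mostly below 0 and those rich in GC mostly above it, and SLC25A18, at 54.3% GC and a change of 0.49, lies above its neighbours.

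Citrate and dicarboxylate carriers held the highest changes among abundant members. SLC25A1 exports citrate, from which the cytosol makes acetyl-CoA for fatty acids and sterols, and lies on chromosome 22 (19163088 to 19166376, hg19). It had 195 FPKM in the NFX1 library and 142 FPKM in the vector library, a fold of 1.37 (1.33 to 1.41) and a change of 0.45, which was 0.19 with the trend subtracted. SLC25A10 (chromosome 17, 79679266 to 79688046, hg19) exchanges malate or succinate for phosphate. It had 74.5 FPKM in the NFX1 library and 53.7 FPKM in the vector library, a fold of 1.39 (1.33 to 1.45) and a change of 0.46, which was 0.23 afterwards. Both transcripts are among the richest in GC of the family, at 64.9% for SLC25A1 and 65.4% for SLC25A10. SLC25A11, the oxoglutarate/malate exchanger of the malate-aspartate shuttle, had 90.9 FPKM in the NFX1 library and 76.0 FPKM in the vector library, a change of 0.25 that was 0.03 afterwards. Its distant relative SLC25A21, which carries longer oxodicarboxylates, had 0.239 FPKM in the NFX1 library and 0.129 FPKM in the vector library, an estimated 16 and 8 fragments, so its fold of 1.86 has an interval of 0.702 to 4.69.

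The glutamate carriers differed in their changes. SLC25A18 and SLC25A22 both import glutamate with a proton. SLC25A18 (chromosome 22, 18043139 to 18074542, hg19) had 3.60 FPKM in the NFX1 library and 2.28 FPKM in the vector library, an estimated 285 and 157 fragments. Its fold was 1.58 (1.29 to 1.93) and its change of 0.49 stood at percentile 99.2 of all measured genes. SLC25A10 stood at percentile 98.9 and SLC25A1 at 98.7. Once the trend was subtracted the change of SLC25A18 was 0.43. The change depends on the pseudocount, since the gene is low: with 5 FPKM added it was 0.24, under the limit of 0.32, while SLC25A1 and SLC25A10 were both at 0.44. SLC25A22 (chromosome 11, 790475 to 805250, hg19) had 20.6 FPKM in the NFX1 library and 18.6 FPKM in the vector library, a fold of 1.11 (1.04 to 1.18) and a change of 0.14 that was -0.04 afterwards. The counting intervals of these folds do not overlap. The difference between the changes was 0.35 as deposited and 0.47 with the trend subtracted, although SLC25A18, at 54.3% GC, is the poorer in GC (SLC25A22 has 64.2%). The SLC25A22 locus is shared with PIDD1, at 6.68 FPKM in the NFX1 library and 4.87 FPKM in the vector library. SLC25A18 supplied 14.9% of the summed FPKM of the pair in the NFX1 library and 10.9% in the vector library, so SLC25A22 remained the main transcript in both. Their coding sequences are 69.3% identical, with no exact shared run over 20 bases. The stretch of 90 coding bases in which they are most alike (bases 173 to 262 of SLC25A18 and 176 to 265 of SLC25A22, GENCODE, coding strand, G and C in capitals) is shown because it is the place where reads would be hardest to tell apart, and it has 12 differing bases:
SLC25A18: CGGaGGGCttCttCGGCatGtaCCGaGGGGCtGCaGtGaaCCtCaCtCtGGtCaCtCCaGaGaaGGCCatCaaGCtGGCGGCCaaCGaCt
SLC25A22: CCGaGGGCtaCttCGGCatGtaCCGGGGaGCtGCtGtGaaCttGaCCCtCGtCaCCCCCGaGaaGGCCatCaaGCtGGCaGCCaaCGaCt

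The sequence before the transcription start of SLC25A18 is shown because this carrier had the highest change with a pseudocount of 1 and was the only one past the limit with the trend subtracted. The 250 bases upstream of the RefSeq start (GRCh38.p14, plus strand, chr22:17563248-17563497) hold 2 CpG dinucleotides, in capitals, and 46% GC:
SLC25A18: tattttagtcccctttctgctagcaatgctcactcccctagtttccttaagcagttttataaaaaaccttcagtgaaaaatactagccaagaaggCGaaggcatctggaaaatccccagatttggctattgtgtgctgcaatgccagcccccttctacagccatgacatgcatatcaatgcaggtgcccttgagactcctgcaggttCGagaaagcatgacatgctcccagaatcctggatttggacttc
The core of the hypoxia response element, ACGTG on either strand, was not found in this window. It was present in 12 of 39 such windows of the 30 measured carriers with a RefSeq start, 30.8%, and in 18.5% of 35116 windows of all genes. The median GC content of the carriers' windows was 66.8% and that of all windows 58%, and the motif itself contains a CpG.

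Among the ADP/ATP carriers with values above 0, SLC25A5 supplied nearly all of the summed FPKM. Its 404 FPKM in the NFX1 library and 370 FPKM in the vector library gave a fold of 1.09 (1.07 to 1.12) and a change of 0.13, which was 0.06 once the trend was subtracted. SLC25A4, the form of heart and skeletal muscle, had 3.01 FPKM in the NFX1 library and 3.46 FPKM in the vector library, a fold of 0.870 (0.769 to 0.983) and a change of -0.15 that was -0.04 afterwards. The counting intervals do not overlap, and SLC25A5 made up 99.3% of the group in the NFX1 library and 99.1% in the vector library. SLC25A31, the testis form, was listed at 0 in both libraries.

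SLC25A6, the ADP/ATP carrier in the pseudoautosomal region, was also listed at 0 in both libraries, in its rows on both sex chromosomes. All 17 symbols with rows on both X and Y in that region were listed at 0 in every row. The value of SLC25A6 is therefore not read as absence of the transcript, and the shares of SLC25A5 hold only among the carriers that the table could count. The coding sequences of SLC25A4, SLC25A5 and SLC25A6 are each 897 bases long. SLC25A4 and SLC25A5 are 77.3% identical with an exact shared run of at most 14 bases, and SLC25A5 and SLC25A6 are 78.8% identical with one of 29 bases. The 90 bases most alike among the carriers (coding bases 46 to 135, GENCODE, coding strand) are given with the 15 positions that differ among them in capitals:
SLC25A4: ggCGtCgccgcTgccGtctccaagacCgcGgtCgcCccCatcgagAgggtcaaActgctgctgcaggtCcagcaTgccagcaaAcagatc
SLC25A5: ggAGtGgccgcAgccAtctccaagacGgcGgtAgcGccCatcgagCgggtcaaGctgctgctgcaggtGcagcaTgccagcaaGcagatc
SLC25A6: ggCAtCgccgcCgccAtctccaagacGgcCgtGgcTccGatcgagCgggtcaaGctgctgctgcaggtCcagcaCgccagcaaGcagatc

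The ATP-Mg/phosphate carriers, most of which calcium activates and which set the size of the matrix adenine nucleotide pool, differed in direction as deposited. SLC25A23 had 46.3 FPKM in the NFX1 library and 40.5 FPKM in the vector library, a fold of 1.14 (1.09 to 1.20). SLC25A25 had 9.47 FPKM in the NFX1 library and 8.04 FPKM in the vector library, a fold of 1.18 (1.08 to 1.28). Against these, SLC25A24 had 9.05 FPKM in the NFX1 library and 10.9 FPKM in the vector library, a fold of 0.832 (0.768 to 0.901), and its interval overlaps neither of the others. SLC25A24 was thus the second carrier of the group in the vector library and SLC25A25 the second in the NFX1 library, at 14.0% and 14.6% of the group in the NFX1 library and 18.2% and 13.5% in the vector library. SLC25A24 is the poorest of them in GC, at 38.7%, while SLC25A23 has 60.3% and SLC25A25, whose change was slightly the higher of the 2, has 55.7%. The change was 0.19 for SLC25A23, 0.21 for SLC25A25 and -0.24 for SLC25A24. Once the trend was subtracted these were 0.002, 0.14 and -0.13. The difference between SLC25A25 and SLC25A24 was 0.45 as deposited and 0.27 once the trend was subtracted, and that between SLC25A23 and SLC25A24 was 0.43 and 0.14. SLC25A41, a close relative of SLC25A23, lay near the floor with 0.0186 FPKM in the NFX1 library and 0.214 FPKM in the vector library, an estimated 1 and 10 fragments and a ratio of 0.0870 (0.00200 to 0.611).

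The glutathione carriers differed as deposited but hardly once the trend with GC content was subtracted. SLC25A39, the main importer of glutathione into the matrix, had 130 FPKM in the NFX1 library and 107 FPKM in the vector library, a fold of 1.21 (1.17 to 1.26). SLC25A40, its paralog, had 4.24 FPKM in the NFX1 library and 4.29 FPKM in the vector library, a fold of 0.988 (0.884 to 1.11). Its locus is shared with DBF4, at 3.06 FPKM in the NFX1 library and 3.14 FPKM in the vector library. The intervals of the carriers do not overlap and the difference in change was 0.29, but it turned to -0.04 once the trend was subtracted. Of all pairs compared these lie farthest apart in GC content, at 62.0% for SLC25A39 and 34.2% for SLC25A40. The contrast is visible in the 90 coding bases in which they are most alike (bases 623 to 712 of SLC25A39 and 563 to 652 of SLC25A40, GENCODE, coding strand, G and C in capitals), with 23 differing bases and a GC content of 63.3% in SLC25A39 and 45.6% in SLC25A40:
SLC25A39: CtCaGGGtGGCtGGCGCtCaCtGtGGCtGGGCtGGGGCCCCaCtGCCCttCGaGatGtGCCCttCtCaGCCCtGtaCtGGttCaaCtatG
SLC25A40: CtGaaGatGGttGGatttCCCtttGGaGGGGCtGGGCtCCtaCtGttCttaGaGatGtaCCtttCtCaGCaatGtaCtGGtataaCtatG

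Most amino acid carriers differed little. SLC25A13 (citrin), the aspartate/glutamate carrier of hepatocytes that serves the urea cycle and the malate-aspartate shuttle, had 30.8 FPKM in the NFX1 library and 31.4 FPKM in the vector library, a fold of 0.979 (0.934 to 1.03). SLC25A12 (aralar), the form of brain and muscle, had 1.83 FPKM in the NFX1 library and 1.78 FPKM in the vector library, a fold of 1.03 (0.837 to 1.26). Citrin made up 94.4% of the pair in the NFX1 library and 94.7% in the vector library, the liver pattern, and the intervals of the folds overlap. SLC25A15, which exchanges ornithine for citrulline in the urea cycle, had 16.8 FPKM in the NFX1 library and 17.9 FPKM in the vector library, a change of -0.09 that stayed at -0.09 once the trend was subtracted. Its intronless paralog SLC25A2 was listed at 0 in both libraries. SLC25A44, a carrier of branched-chain amino acids, had 25.2 FPKM in the NFX1 library and 21.4 FPKM in the vector library, a change of 0.23 that was 0.22 afterwards. SLC25A29, which carries basic amino acids, had 22.7 FPKM in the NFX1 library and 21.3 FPKM in the vector library, a change of 0.09 that turned to -0.11. SLC25A38, a glycine carrier needed for heme synthesis, was listed at 0 in both libraries, and whether that is a failed estimate was not tested.

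SLC25A3 and SLC25A20 stand for the supply of phosphate and of fatty acids to the matrix. SLC25A3 (chromosome 12, 98987403 to 98995778, hg19) had a fold of 1.20 (1.17 to 1.22) and a change of 0.26. At 48.2% GC it is not a GC-rich transcript, and the change was 0.22 once the trend was subtracted. SLC25A20, which exchanges acylcarnitine for carnitine in fatty acid oxidation, had 15.4 FPKM in the NFX1 library and 14.6 FPKM in the vector library, a fold of 1.06 (0.962 to 1.17).

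Carriers of nucleotides and cofactors included the member with the lowest change. SLC25A32, which carries folate and FAD, had 8.09 FPKM in the NFX1 library and 10.0 FPKM in the vector library, a fold of 0.807 (0.735 to 0.884). Its change of -0.28 was the lowest among the measured carriers and was -0.17 once the trend was subtracted; its assembled locus on chromosome 8 is shared with DCAF13, at 12.4 FPKM in the NFX1 library and 13.2 FPKM in the vector library. The S-adenosylmethionine carrier SLC25A26 had 10.2 FPKM in the NFX1 library and 9.18 FPKM in the vector library, a fold of 1.11 (0.948 to 1.31) and a change of 0.14 with or without the trend. SLC25A17, a peroxisomal member that carries coenzyme A and related cofactors, had 8.64 FPKM in the NFX1 library and 9.14 FPKM in the vector library, a fold of 0.945 (0.850 to 1.05).

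The pyrimidine nucleotide carriers were both slightly lower in the NFX1 library. SLC25A33 had 31.0 FPKM in the NFX1 library and 33.0 FPKM in the vector library, a fold of 0.940 (0.901 to 0.979), and SLC25A36 had 2.89 and 3.32 FPKM in the NFX1 and vector libraries, a fold of 0.870 (0.730 to 1.04). Their intervals overlap, and once the trend was subtracted the change of SLC25A36 was -0.04 and that of SLC25A33 rounded to 0. SLC25A42, a coenzyme A carrier, had 10.2 FPKM in the NFX1 library and 9.01 FPKM in the vector library, a fold of 1.13 (1.04 to 1.24). SLC25A16, whose link to coenzyme A is less direct, had 1.78 FPKM in the NFX1 library and 1.77 FPKM in the vector library, a fold of 1.01 (0.880 to 1.15). These intervals overlap, and the difference of 0.16 turned to -0.12 once the trend was subtracted. The mitoferrins, which bring iron in for heme and iron-sulfur clusters, had counting intervals that hold 1. SLC25A28 had 13.3 FPKM in the NFX1 library and 12.4 FPKM in the vector library (interval of the fold 0.953 to 1.20), and SLC25A37, the form of red cell precursors, 3.84 FPKM in the NFX1 library and 3.73 FPKM in the vector library (0.925 to 1.15). SLC25A28 made up 77.5% of the pair in the NFX1 library and 76.9% in the vector library.

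SLC25A51, the NAD carrier, had 7.19 FPKM in the NFX1 library and 6.96 FPKM in the vector library, a fold of 1.03 (0.880 to 1.21), and SLC25A52 was listed at 0 in both libraries. Their coding sequences are 97.7% identical with an exact shared run of 169 bases, so the split between these paralogs is uncertain. No other pair within a substrate group shared a run above 33 bases, found between SLC25A15 and SLC25A2. Of the carriers resembling uncoupling proteins, SLC25A14 had 8.83 FPKM in the NFX1 library and 9.01 FPKM in the vector library, a fold of 0.979 (0.856 to 1.12). SLC25A30 had 1.64 FPKM in the NFX1 library and 2.11 FPKM in the vector library, a fold of 0.777 (0.648 to 0.930) and a change of -0.24 that was -0.11 once the trend was subtracted. SLC25A27 had an estimated 0 fragments in the NFX1 library and 1 fragment in the vector library.

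**Figure D3:**
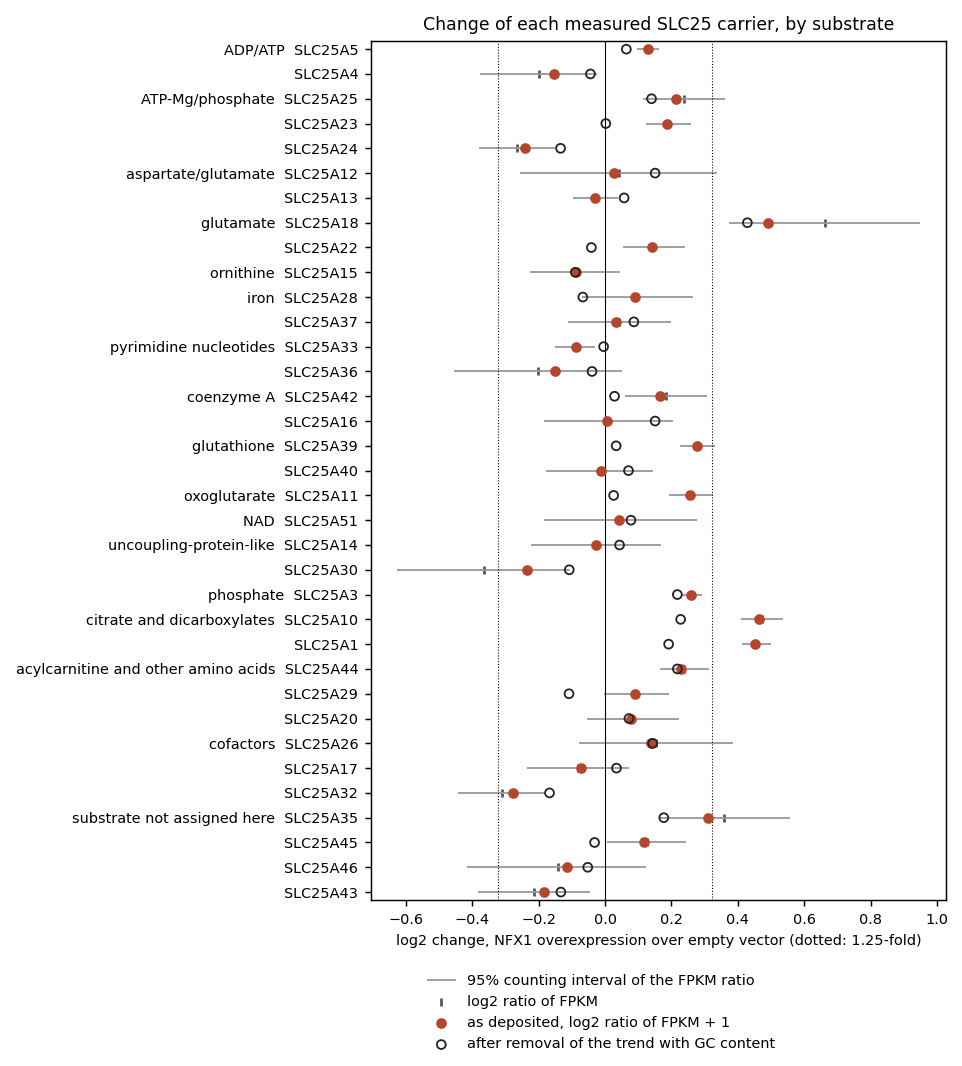
Log2 change of each measured carrier reported here (horizontal axis, NFX1 overexpression over empty vector), grouped by substrate: filled points as deposited, open points with the GC trend subtracted, grey bars the 95% counting interval of the FPKM ratio, which a short tick marks. SLC25A18, SLC25A10 and SLC25A1 lie beyond the dotted line at 0.32 as deposited, and SLC25A18 alone does with the trend subtracted.

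Members with no substrate named here varied in both directions. SLC25A35 had 7.18 FPKM in the NFX1 library and 5.60 FPKM in the vector library, a change of 0.31 that was 0.18 once the trend was subtracted. Its assembled locus on chromosome 17 is shared with RANGRF, at 105 FPKM in the NFX1 library and 87.3 FPKM in the vector library, and whether reads were counted by strand is not given in the sources used here. SLC25A45 had 16.1 FPKM in the NFX1 library and 14.7 FPKM in the vector library, a change of 0.12 that turned to -0.03. It has another row at the same locus, with 1.15 and 1.33 FPKM in the NFX1 and vector libraries. SLC25A43 had 5.48 FPKM in the NFX1 library and 6.36 FPKM in the vector library, a change of -0.18 that was -0.13 afterwards. SLC25A46, an outer-membrane member linked to mitochondrial fission, had 4.24 FPKM in the NFX1 library and 4.68 FPKM in the vector library, with an interval of the fold of 0.750 to 1.09.

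The other 12 carriers had FPKM under 1 in both libraries. SLC25A2, SLC25A6, SLC25A31, SLC25A38 and SLC25A52 were listed at 0, and the highest value, 0.758 FPKM, was that of SLC25A53 in the vector library, against 0.724 FPKM in the NFX1 library. SLC25A48 had 0.154 FPKM in the NFX1 library, an estimated 10 fragments, and was listed at 0 in the vector library. SLC25A34 had 0.0680 FPKM in the NFX1 library and 0.0586 FPKM in the vector library, and SLC25A47, a member of liver mitochondria, an estimated 1 fragment in each.

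Across the substrate groups 11 pairs of measured paralogs could be compared. The counting intervals of the folds did not overlap in 5 pairs, SLC25A5 and SLC25A4, SLC25A23 and SLC25A24, SLC25A25 and SLC25A24, SLC25A18 and SLC25A22, and SLC25A39 and SLC25A40. This count has no value over all genes to be read against, and intervals off 1 were common, wholly above it for 32.4% of all genes and wholly below it for 22.8%. The pairs are not independent, as 3 of the 11 are drawn from SLC25A23, SLC25A24 and SLC25A25. In 8 of the 11 pairs the paralog with the higher change was the richer in GC. This count too has no value over all genes beside it, where change also rose with GC content (rank correlation 0.63). After removal of the trend the order of the paralogs was turned in 3 pairs, SLC25A28 and SLC25A37, SLC25A42 and SLC25A16, and SLC25A39 and SLC25A40. Which paralog led its group was the same in both libraries in the 10 groups with values for several members. For the ADP/ATP group this leaves SLC25A6 aside, whose listed 0 is not read as absence. The share that differed most was that of SLC25A24, by -4.27 percentage points.

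**Figure D4:**
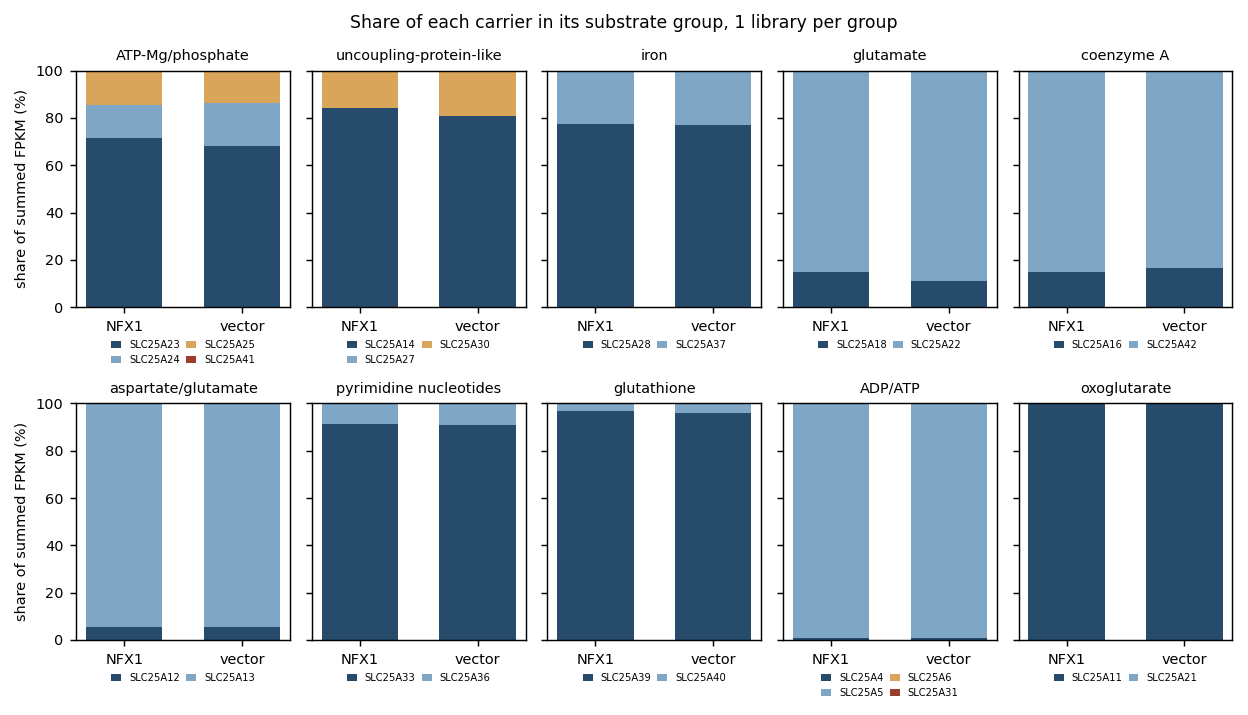
Share of each carrier in the summed FPKM of its substrate group (percent, stacked bars from 0 to 100), NFX1 library at the left and vector library at the right of each panel. The leading carrier of every panel is the same in both libraries, and the share of SLC25A24 was 14.0% in the NFX1 library and 18.2% in the vector library. SLC25A6 enters its panel at a listed 0, which is not read as absence.

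Family members under other symbols were read from a list, of which 5 symbols were in the table and 3 were measured, all with changes above 0. UCP2, an uncoupling protein that also moves short organic acids, had 40.4 FPKM in the NFX1 library and 29.4 FPKM in the vector library, a change of 0.45 that was 0.27 once the trend was subtracted. MTCH2, an insertase of the outer membrane, had a change of 0.16 (0.24 afterwards) and MTCH1 one of 0.15 (-0.07 afterwards). Genes that import carriers into mitochondria were measured in 16 of 16 cases, 12 above 0 and 4 below, beside 5816 of the 11182 measured genes above 0, with a median of 0.11 as deposited and 0.07 afterwards. None was past the limit, against 6.12% of all genes past it above 0 and 2.3% below. Their changes ran from -0.11 for TOMM70A, the outer-membrane receptor for carriers, to 0.31 for TIMM10. The 4 highest were TIMM10 and TIMM13, chaperones of the intermembrane space, TIMM22, the insertion channel of the inner membrane, and C19orf52, with changes of 0.31, 0.30, 0.25 and 0.20, of which the last was near 0 afterwards and the others 0.13, 0.05 and 0.23. Of the other small chaperones of the list, TIMM8B was at 0.14, TIMM9 at 0.07, TIMM8A at 0.01 and TIMM10B at -0.08. Afterwards these were 0.15, 0.14, 0.08 and -0.04, so TIMM8B and TIMM9 were no lower than TIMM10 and TIMM13. Of 13 other mitochondrial channels and transporters 8 were above 0 and 5 below, with SFXN2, a sideroflexin, at 3.53 FPKM in the NFX1 library and 2.48 FPKM in the vector library, a change of 0.38 that was 0.49 afterwards. Of the other sideroflexins, SFXN3, SFXN4 and SFXN5 had changes of 0.26, 0.13 and 0.13 (0.18, 0.14 and 0.01 afterwards). SFXN1, a serine carrier, had one of -0.20 (-0.12 afterwards). The pyruvate carrier subunits differed in direction. MPC2 had 112 FPKM in the NFX1 library and 128 FPKM in the vector library, a change of -0.18 (-0.17 afterwards). MPC1 had 21.9 FPKM in the NFX1 library and 20.5 FPKM in the vector library, a change of 0.09 (0.15 afterwards). The interval of the MPC1 fold, 0.952 to 1.20, holds 1.

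In the authors' deposited table, tests were run on 37 carrier rows and 0 were marked as significant. The smallest p there was 0.0271, for SLC25A18, with a q of 0.999 in the authors' deposited table. Such p-values rest on single libraries and hold no information on how much separate cultures vary.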

How the data were processed

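RNA of 2 PLC/PRF/5 cultures was sequenced, 1 per genotype. The build hg19 and the tools Cufflinks 2.2.1 and TopHat2 2.1.0 are named in the submitters' processing notes. Their settings, the strand and the annotation are not given in the sources used here. Per the file headers the authors deposited 1 FPKM value per gene and library, and for each gene a p-value, a q-value, the log2 fold change and the test's score. How the authors scaled the libraries is not stated.

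Of 28658 rows, those with 1 symbol were used. For 491 repeated symbols the row with the highest mean was taken. The filter was 1 FPKM in either library and the pseudocount 1. The rule was to name every measured member, of which 1 is not reported here, though it stayed in the counts and medians; the members, substrate groups and lists were chosen with earlier results of these data known. Up to 4 genes with the largest changes are named from each other list, with some related genes beside them, and NFX1 as a check. The markers named are those of highest and lowest level and of largest change.

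The worth of 1 fragment was fitted to single-exon olfactory receptor rows under 1100 bp, with 276 bases taken off each length. Fragments per gene used the median length of GENCODE 29 basic protein-coding transcripts, matched by symbol, so interval widths depend on that length. The GC trend was fitted with cubic splines of GC content, log2 length and expression on genes within 2-fold, and took 41.8% of the variance. Steps were tested on simulated data. Starts count from 1. GENCODE and RefSeq (GRCh38) served for sequence only. Alternatives covered pseudocount, filter, scaling, row choice, trend and fold limit. Software was scipy 1.17.1, pandas 2.3.3, numpy 2.4.6 and Python 3.11.15, with matplotlib 3.10.9 for plots.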

Additional observations from a re-analysis of the deposited data

How the results depend on the processing

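No paired analysis was possible because each group has 1 library. The 3 carriers with a change of at least 0.32 became 5 with a pseudocount of 0.1, SLC25A35 among those added, and 1 after removal of the GC trend, SLC25A18. With a pseudocount of 5 it was 2, as SLC25A18 at 0.24 was no longer past the limit, and with FPKM of at least 5 it was 2, as SLC25A18 was filtered out. At fold limits of 1.5 and 2 the number was 0. The 0 carriers as far below 0 became 1 with a pseudocount of 0.1, SLC25A30, and 1 with upper quartile scaling, SLC25A32. The median change ranged between 0.01 with upper quartile scaling and 0.13 with FPKM of at least 5. Upper quartile scaling moves the values of all genes, so its 0.01 is not comparable with the 0.01 over all genes as deposited. Centred on the median of all measured genes, the median of the carriers was 0.07. The difference between SLC25A39 and SLC25A40 turned to -0.0371 once the trend was subtracted. Upper quartile scaling shifted the members by -0.07 and turned the sign of 4 of 36, SLC25A12, SLC25A16, SLC25A37 and SLC25A51. Centring on the median of all genes turned SLC25A16 alone. Removal of the trend turned 8 of 36, SLC25A13, SLC25A14, SLC25A17, SLC25A22, SLC25A28, SLC25A29, SLC25A40 and SLC25A45. Measured carriers rest on at least 208 estimated fragments in the NFX1 library and 157 in the vector library, which limits the precision of the lowest ones, SLC25A18 included.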
